A study of Mus musculus with 8 samples.

Results

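Wnt signalling and the intestinal stem cell were examined through 39 genes that encode Wnt ligands, their secreted antagonists, receptors, intracellular transducers, target genes and stem cell markers. The genes were chosen by name for these roles, and a probe set was found for 33 of the 39 by gene symbol, 1 for each gene, among 22206 probe sets in all. Ctnnb1, Tcf7, Ccnd1, Rnf43, Ephb2 and Olfm4 were not analysed here.

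Wnt proteins bind Frizzled receptors at the cell surface and keep β-catenin from being degraded by a complex that holds Apc and Axin. β-catenin then enters the nucleus and acts with transcription factors of the TCF/LEF family. In the small intestine this signal is strongest at the base of the crypts, where Paneth cells and the underlying stroma supply Wnt ligands and R-spondins, and it maintains the Lgr5-expressing stem cells that renew the epithelium.

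The study measured RNA from the duodenum of 8 untreated mice on 1-colour Clariom S arrays. The 4 knockout mice (KO) carried floxed alleles of Nfkbia, the gene of the NF-κB inhibitor IκBα, and Villin-Cre, which acts in intestinal epithelium. Recombination takes out the promoter and first exons of Nfkbia, and the position of its probe set on the gene is not used here. The 4 wild-type mice (WT) were littermates of the knockouts, 1 for each, and the sources used here do not give whether they carried floxed alleles or Cre. The mice were 8 to 11 weeks old. In pair 1 both siblings were male by label and in pair 2 both were female, while pair 3 set a male KO against a female WT and pair 4 a female KO against a male WT. The design text names homogenized duodenum and the sample labels small intestine, and neither gives a step that isolates epithelium. Levels of genes are log2 expression values of 1 probe set, summed levels of marker lists are the log2 of the sum of their linear values, and a level of one gene cannot be set against that of another on this array.

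Each KO was compared with its own sibling, because most of the difference between pairs was already absent from the deposited values. The 4 pair means of a probe set had a median SD of 0.0175, against 0.0897 that the within-pair differences alone would give. The high and low values of siblings therefore mirror each other, and spread within a group was not interpreted. For the same reason, groups that do not overlap mostly restate that all 4 pairs changed in 1 direction, and are not separate support. All 4 KO lay above all 4 WT for 15.9% of probe sets, and 16.5% were higher in all 4 pairs. For lower values the shares were 17.2% and 17.9%. A probe set was called changed at a limma adjusted p under 0.05 (Benjamini-Hochberg, all 22206 probe sets, sibling pair as a block), and ± gives the SD over the 4 log2 differences between siblings. The 95% intervals are those of single genes and are not adjusted for the number of probe sets. An interval can therefore lie wholly above or below no change for a gene that was not called. The deleted gene was lower in every pair: Nfkbia had log2 values of 6.82, 6.65, 7.72 and 6.65 in KO and 9.75, 9.91, 9.01 and 9.78 in WT of pairs 1 to 4 (difference −2.65 ± 0.918, limma adjusted p = 0.0130, range across settings 0.000292 to 0.209). Epithelial markers were measured for 10 of 10 listed genes, and their summed level ran from 15.81 to 15.88 (log2) in KO and from 15.95 to 15.98 in WT.

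Among the 33 genes, Fzd7, Cd44 and Prom1 were higher in KO duodenum, by 0.86, 0.52 and 0.91 on the log2 scale, and no member was called lower. The 3 calls stand beside 3.16% of all probe sets called higher, the 0 beside 2.70% called lower, and both together beside 5.86% called in either direction. Whether 3 of 33 exceeds that share was not tested. At an unadjusted limma p under 0.05 there were 6 higher and 5 lower members, 11 of 33 beside 27.5% of all probe sets. KO and WT did not overlap for 15 members, beside 33.1% of all probe sets. The median change of the 33 was −0.07, against −0.015 for all probe sets. In bulk tissue, fewer cells of a type and less RNA per cell cannot be told apart, here and below.

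Fzd7 encodes a Frizzled receptor described in mouse Lgr5-expressing stem cells. Its log2 values were 8.76, 8.89, 8.55 and 8.75 in KO of pairs 1 to 4, and 7.81, 7.73, 8.03 and 7.94 in WT. All 4 KO lay above all 4 WT, which held for 15.9% of all probe sets. The rise of 0.86 ± 0.268 (n = 4 pairs, 95% interval 0.59 to 1.13) is 1.82-fold (limma adjusted p = 0.0161). The rise was 0.95, 1.16, 0.52 and 0.81 in pairs 1 to 4, while Nfkbia differed by −2.93, −3.26, −1.29 and −3.13. Whether the rise of Fzd7 follows the fall of Nfkbia was not tested. The call was lost on leaving out pair 1 (limma adjusted p = 0.0621), pair 2 (0.0626) or pair 4 (0.0578), and the adjusted p spanned 0.000271 to 0.186 across settings.

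The other measured receptor, Fzd5, which acts in Paneth cell maturation in the mouse, had log2 values of 9.76, 9.81, 9.78 and 9.71 in KO and 9.97, 9.93, 9.88 and 9.93 in WT. All 4 KO lay below all 4 WT, which held for 17.2% of all probe sets, and the difference of −0.16 ± 0.0613 did not pass the test (limma adjusted p = 0.188, 95% interval −0.33 to 0.00313). Fzd5 thus differed from its sibling value in the direction opposite to Fzd7 in 4 of 4 pairs.

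Cd44 encodes a hyaluronan receptor that is a Wnt target in crypt epithelium and is also carried by many leukocytes. Its log2 values were 8.93, 8.91, 8.65 and 8.75 in KO, against 8.21, 8.21, 8.40 and 8.35 in WT. The groups did not overlap. The rise was 0.52 ± 0.231 (n = 4 pairs, 1.43-fold, 95% interval 0.27 to 0.76, limma adjusted p = 0.0403). The within-pair changes were 0.72 and 0.70 in pairs 1 and 2 and 0.25 and 0.40 in pairs 3 and 4. B cell markers, with 6 of 7 listed genes measured, had median changes of 1.035, 0.74, −0.09 and 0 in the same pairs, and their summed level ran from 13.24 to 13.49 in KO and from 13.03 to 13.32 in WT (log2). Jchain alone made up most of that sum, with changes of 0.32, 0.42, −0.07 and −0.05, so the sum says little about the other B cell markers. T cell markers, with 10 of 12 measured, had medians of 0.075, −0.08, −0.16 and −0.47 and summed levels of 10.38 to 10.68 in KO and 10.68 to 10.98 in WT. Of the T cell markers, 1 was called higher, beside 3.16% of all probe sets and against the list's medians. That gene, Cd4, encodes a co-receptor of helper T cells and differed by 0.33, 0.57, 0.42 and 0.26 (limma adjusted p = 0.0427). The part of either cell type in the rise of Cd44 was not tested.

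Prom1 encodes prominin-1 (CD133), a membrane glycoprotein found on crypt stem and progenitor cells of the mouse intestine. Its log2 values were 8.99, 9.14, 9.25 and 9.50 in KO, against 8.55, 8.43, 8.20 and 8.05 in WT, again without overlap. The rise of 0.91 ± 0.437 (n = 4 pairs, 95% interval 0.53 to 1.30) is 1.88-fold (limma adjusted p = 0.0320). Pairs 1 and 2 gave 0.44 and 0.71, and pairs 3 and 4 gave 1.05 and 1.45. Cd44 and Prom1 lost their calls without any 1 pair (limma adjusted p from 0.0538 to 0.137 for Cd44 and from 0.0506 to 0.0927 for Prom1). They also lost them with sex (0.0803 and 0.0633) or RNA integrity (0.0893 and 0.0595) added to the block, and over all settings the adjusted p ran from 0.0014 to 0.241 for Cd44 and from 0.00134 to 0.154 for Prom1.

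**Figure D1:**
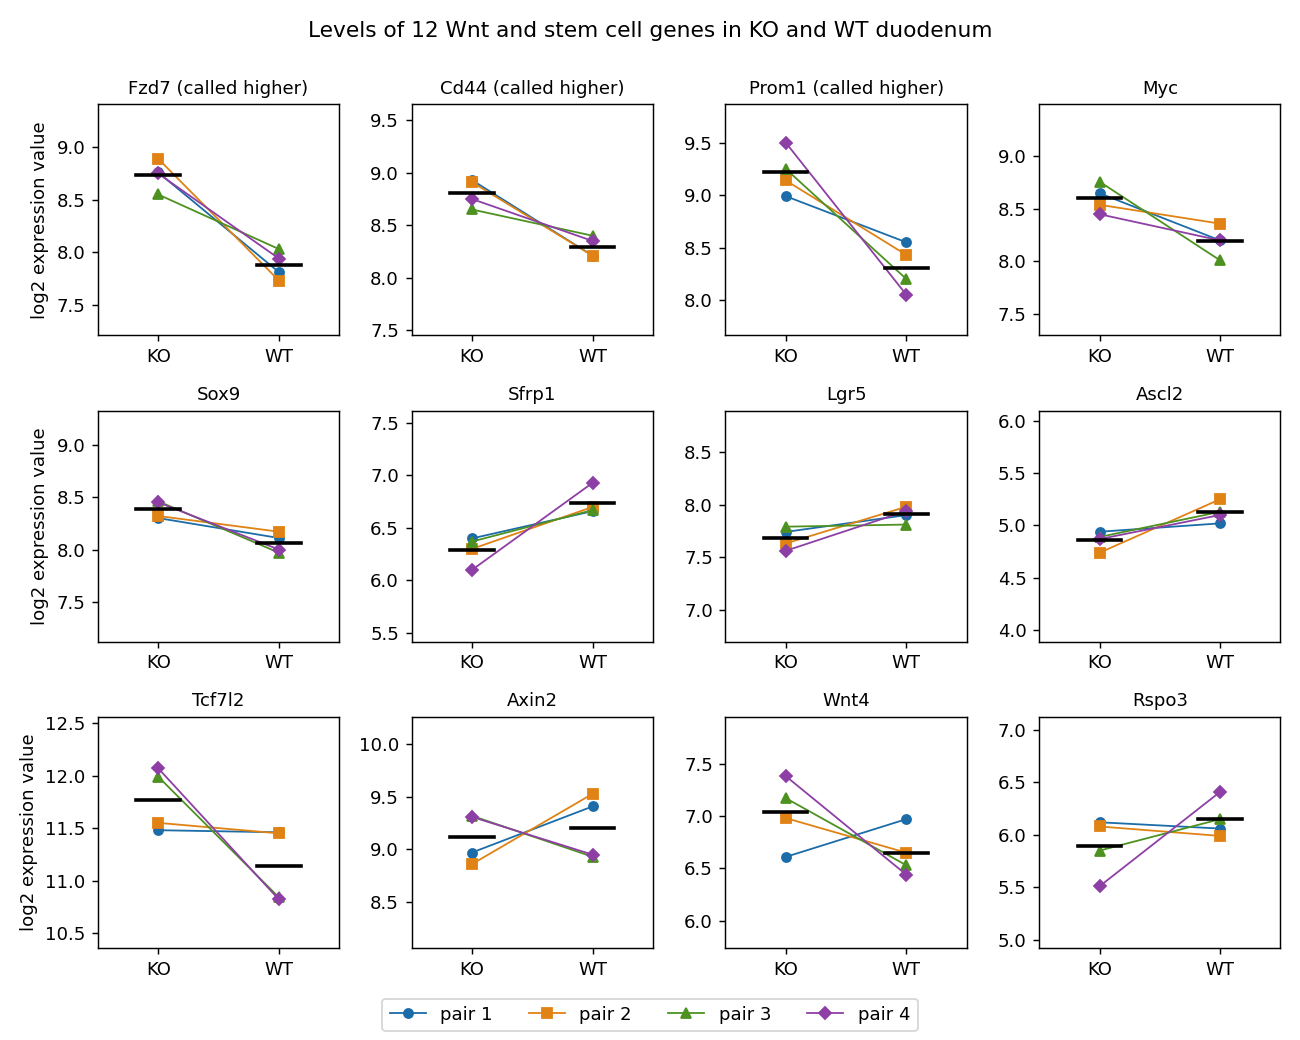
Log2 expression values of 12 Wnt and stem cell genes (vertical axes, each spanning the same log2 range) in KO (left) and WT (right) duodenum; lines join siblings, symbols mark the 4 pairs and black bars are group means. Fzd7, Cd44 and Prom1 lie higher in KO in all 4 pairs, while Axin2 lies lower in KO in pairs 1 and 2 and higher in KO in pairs 3 and 4.

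The promoters of the 3 called genes are shown because their RNA was higher in KO, beside those of Sp5 and Rspo1, which hold the motifs searched. The windows run from 250 bases before to 50 after the start of a gene and come from RefSeq (build GRCm38.p6, 5′ to 3′ on the strand of the gene). Of the 33 genes, 21 have an entry, with 27 windows. The 12 others are Apc, Apcdd1, Dkk3, Lgr5, Myc, Notum, Rspo3, Sfrp1, Smoc2, Sox9, Wnt5a and Znrf3. The TCF/LEF motif, searched as CTTTGAT or CTTTGAA on both strands, is in 8.65% of all 32851 windows and in 2 of the 27, those of Sp5 and of the second start of Tnfrsf19. The NF-κB consensus, searched on both strands, is in 4.51% of all windows and in 1 of the 27, that of Rspo1. None of the 27 windows holds both motifs. Capitals below mark the motif matches, and the capitals of Rspo1 hold 2 overlapping matches. The windows lie at chr1:59481897-59482196 (plus strand) for Fzd7, chr2:102901616-102901915 (minus strand) for Cd44, chr5:44101687-44101986 (minus strand) for the first of 2 starts of Prom1, chr2:70474673-70474972 (plus strand) for Sp5 and chr4:124986180-124986479 (plus strand) for Rspo1.
Fzd7: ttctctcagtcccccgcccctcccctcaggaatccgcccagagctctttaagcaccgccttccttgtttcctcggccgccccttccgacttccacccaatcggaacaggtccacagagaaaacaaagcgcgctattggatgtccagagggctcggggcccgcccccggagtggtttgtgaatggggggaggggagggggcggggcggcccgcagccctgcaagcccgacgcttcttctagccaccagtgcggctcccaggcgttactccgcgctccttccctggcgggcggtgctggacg
Cd44: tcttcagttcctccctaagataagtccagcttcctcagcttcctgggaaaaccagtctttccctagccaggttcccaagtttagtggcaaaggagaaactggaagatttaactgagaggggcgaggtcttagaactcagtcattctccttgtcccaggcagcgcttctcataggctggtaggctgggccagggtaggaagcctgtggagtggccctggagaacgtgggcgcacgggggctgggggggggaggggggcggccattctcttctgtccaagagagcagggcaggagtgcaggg
Prom1: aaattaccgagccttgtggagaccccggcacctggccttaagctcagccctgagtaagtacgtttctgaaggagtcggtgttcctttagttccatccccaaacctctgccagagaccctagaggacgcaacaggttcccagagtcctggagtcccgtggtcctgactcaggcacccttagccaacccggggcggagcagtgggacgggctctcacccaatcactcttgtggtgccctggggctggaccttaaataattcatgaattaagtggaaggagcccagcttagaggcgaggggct
Sp5: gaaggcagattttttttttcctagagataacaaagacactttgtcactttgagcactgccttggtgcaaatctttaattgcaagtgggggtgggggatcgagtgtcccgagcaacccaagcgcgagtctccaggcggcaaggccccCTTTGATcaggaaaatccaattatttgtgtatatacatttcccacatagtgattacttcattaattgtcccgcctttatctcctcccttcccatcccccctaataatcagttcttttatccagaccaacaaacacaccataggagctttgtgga
Rspo1: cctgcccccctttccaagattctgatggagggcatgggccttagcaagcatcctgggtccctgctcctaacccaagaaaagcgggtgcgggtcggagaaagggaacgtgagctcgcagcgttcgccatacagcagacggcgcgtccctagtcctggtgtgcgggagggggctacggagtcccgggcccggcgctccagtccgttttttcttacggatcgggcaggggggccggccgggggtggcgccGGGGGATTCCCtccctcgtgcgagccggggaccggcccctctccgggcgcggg
These letters are not in the windows of Fzd7, Cd44 and Prom1, and nothing about the factors follows from that. The 3 genes with a match in a window were not called: the limma adjusted p was 0.299 for Sp5, 0.495 for Tnfrsf19 and 1 for Rspo1.

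None of the 6 Wnt ligands was called, and 5 of them had lower means in KO. Wnt2b and Wnt5a, ligands of the stroma, and Wnt3 and Wnt6, ligands of the epithelium, were lower than in the sibling in 4 of 4 pairs, which held for 17.9% of all probe sets. Their mean log2 changes were −0.13 (Wnt2b), −0.165 (Wnt3), −0.23 (Wnt5a) and −0.14 (Wnt6), with limma adjusted p from 0.145 to 0.312. Wnt5a, a ligand of intestinal stroma that mainly acts without β-catenin, had the largest of these differences. Its log2 values were 7.30, 7.11, 7.18 and 7.24 in KO, against 7.35, 7.52, 7.50 and 7.39 in WT (95% interval of the difference −0.44 to −0.03). The groups did not overlap, though pair 1 differed by only −0.05.

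Wnt3, which mouse Paneth cells supply to neighbouring stem cells, had log2 values of 5.51, 5.48, 5.57 and 5.57 in KO, against 5.75, 5.76, 5.67 and 5.61 in WT. The KO values lie below 5.65, a rough background level under which 95% of 1091 olfactory receptor probe sets lie. The WT value of pair 4 lies below it too, and the other WT values lie close to it. Changes in Wnt3 may therefore not be measurable here. Paneth cell markers, with 10 of 10 measured, had 3 called lower (Ang4, Habp2 and Nupr1), beside 2.70% of all probe sets. The markers had median changes of −0.985, −1.135, 0.055 and −1.035 in pairs 1 to 4. Their summed level ran from 13.89 to 14.63 in KO and from 14.55 to 15.13 in WT (log2), and Wnt3 differed by −0.24, −0.28, −0.10 and −0.04 in the same pairs. The part of Paneth cells in the Wnt3 values was not tested.

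Wnt4 had the largest mean change of the ligands and went the other way. Its log2 values were 6.61, 6.98, 7.17 and 7.38 in KO, against 6.97, 6.65, 6.53 and 6.44 in WT. The groups overlapped through pair 1, in which the KO was lower by 0.36 while the KO of pairs 2 to 4 was higher by 0.33, 0.64 and 0.94. The mean of 0.39 ± 0.557 did not pass the test (limma adjusted p = 0.261). Wnt9b, described at the mouse crypt base, differed by −0.29 to 0.13 and was lower in 3 of 4 pairs (mean −0.105, limma adjusted p = 0.494).

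The R-spondins strengthen Wnt signals through Lgr receptors and come from stromal cells. Rspo1 had log2 values of 7.62, 7.55, 7.36 and 7.15 in KO, against 7.26, 7.32, 7.47 and 7.63 in WT. Its mean difference was 0 and its within-pair changes were 0.36, 0.23, −0.11 and −0.48. Rspo3 had 6.12, 6.08, 5.85 and 5.51 in KO, against 6.06, 5.99, 6.15 and 6.41 in WT, with changes of 0.06, 0.09, −0.30 and −0.90 (mean −0.26 ± 0.460, limma adjusted p = 0.357). Both genes were thus higher in the KO of pairs 1 and 2 and lower in the KO of pairs 3 and 4, a pattern of opposite signs found in 12.0% of all probe sets. Stromal markers, with 13 of 14 measured, had median changes of 0.32, 0.22, −0.24 and −0.48, and smooth muscle markers, with 10 of 10 measured, had 0.255, 0.065, −0.475 and −0.615. Summed levels ran from 12.25 to 12.93 in KO and 12.55 to 13.07 in WT for stroma, and from 13.72 to 14.27 in KO and 14.05 to 14.40 in WT for smooth muscle (log2). The part of either tissue in the R-spondin values was not tested.

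None of the 6 secreted antagonists was called, and 5 had lower means in KO. Sfrp1, a secreted Frizzled-related protein that binds Wnts, came closest. Its log2 values were 6.40, 6.30, 6.37 and 6.10 in KO, against 6.66, 6.70, 6.67 and 6.93 in WT. The groups did not overlap, and the difference of −0.45 ± 0.262 had a limma adjusted p = 0.0637 (95% interval −0.71 to −0.18). It passed the threshold in 4 of 18 settings, among them the fit without the sibling block (adjusted p from 0.00421 to 0.246 over all). Dkk3, a divergent member of the Dickkopf family, differed by −0.26 ± 0.142 and was lower in 4 of 4 pairs (limma adjusted p = 0.103). Notum, a secreted enzyme that inactivates Wnts, differed by −0.54 to 0.32. Wif1, which binds Wnts, differed by −0.36 to 0.21. Dkk2, which blocks Lrp co-receptors, and Sfrp5, another Frizzled-related protein, averaged below the background level in both groups, so changes in them may not be measurable here.

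Of the transducers, Apc, the scaffold of the complex that degrades β-catenin, had log2 values of 9.09, 9.09, 9.23 and 9.26 in KO, against 9.25, 9.25, 9.09 and 9.09 in WT. Its differences of −0.16, −0.16, 0.14 and 0.17 left a mean of −0.0025, a sign that turned when arrays were centred on epithelial genes. Lef1, a TCF/LEF factor also active in lymphocytes, differed by −0.32 to 0.40 and was lower in the KO of 3 of 4 pairs (mean −0.065, limma adjusted p = 0.773). Tcf7l2, the main TCF factor of intestinal epithelium, had log2 values of 11.48, 11.55, 11.99 and 12.07 in KO, against 11.46, 11.45, 10.84 and 10.82 in WT. The groups did not overlap, but the difference was 0.02 and 0.10 in pairs 1 and 2 and 1.15 and 1.25 in pairs 3 and 4. The mean of 0.63 ± 0.660 did not pass the test (limma adjusted p = 0.144, 95% interval 0.08 to 1.18).

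Pancreatic acinar markers, with 10 of 12 measured and 0 below the background level in both groups, had median changes of −0.47, 0.145, −4.13 and −3.37 in pairs 1 to 4. Their summed level ran from 9.4 to 11.23 in KO and from 10.94 to 13.61 in WT (log2), with the highest WT values in pairs 3 and 4. Adipose markers, with 9 of 10 measured and 2 below the background level in both groups, had medians of 1.61, 1.17, 0.16 and 0.19, and summed levels of 10.68 to 12.39 in KO and 9.8 to 10.96 in WT. Pairs 3 and 4, in which Tcf7l2 and Wnt4 differed most, are thus also those with the acinar difference and with siblings of opposite sex. Pairs 1 and 2, in which Cd44 and Fzd7 differed most, are those with the adipose difference. The part of these in the values of Tcf7l2, Wnt4, Prom1, Cd44 and Fzd7 was not tested.

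**Figure D2:**
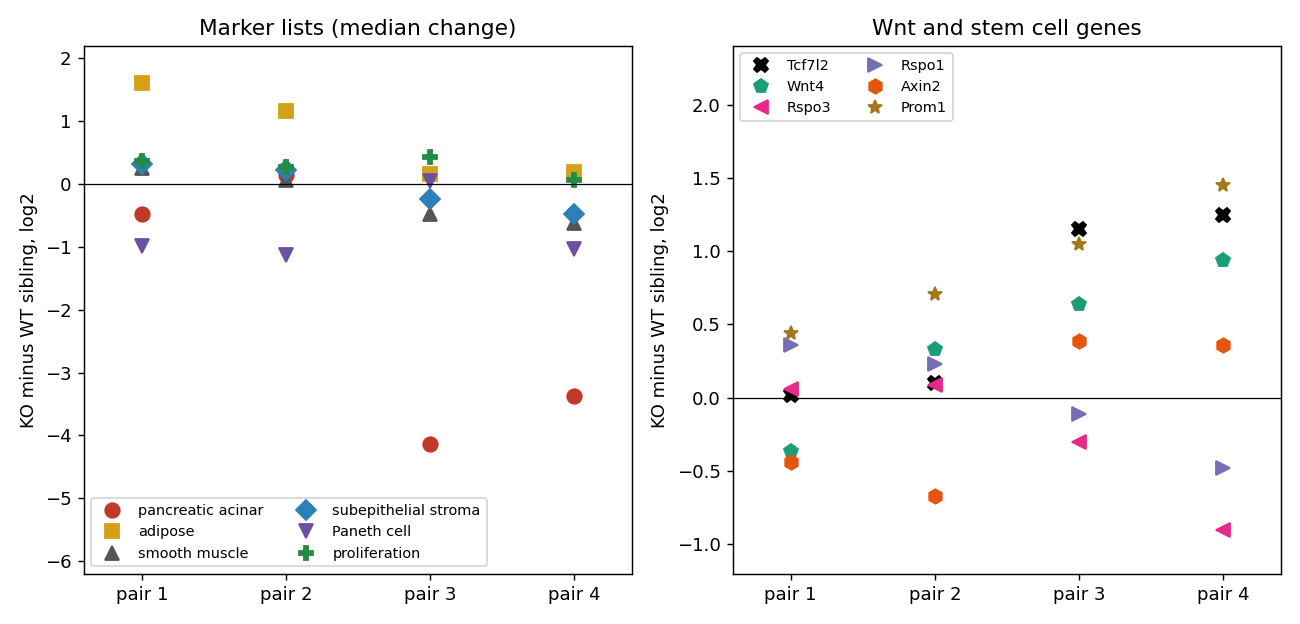
Within-pair changes (KO minus WT sibling, log2) by sibling pair: left, medians of 6 marker lists; right, 6 Wnt and stem cell genes. Acinar markers lie at −4.13 and −3.37 in pairs 3 and 4, where Tcf7l2 lies at 1.15 and 1.25 and both R-spondins lie below 0.

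Of the 10 target genes measured, Cd44 was called higher and none lower, and 6 of the 10 had higher means in KO. Cd44, Myc and Sox9 were higher in 4 of 4 pairs, which held for 16.5% of all probe sets. Myc, the growth-promoting transcription factor, had log2 values of 8.65, 8.54, 8.76 and 8.45 in KO, against 8.20, 8.36, 8.01 and 8.20 in WT. Its difference of 0.41 ± 0.255 had a limma adjusted p = 0.0748 (95% interval 0.15 to 0.67). In 3 of 18 settings Myc was called higher, among them the fit without the sibling block (adjusted p from 0.00784 to 0.259 over all). The differences of 0.45 and 0.75 in pairs 1 and 3 were the larger ones, and in these pairs the RNA integrity number of the KO was higher than that of the WT by 0.9. With RNA integrity added to the block the change of Myc was 0.36.

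Sox9, a transcription factor of crypt progenitors and Paneth cells, had log2 values of 8.30, 8.32, 8.46 and 8.45 in KO, against 8.11, 8.17, 7.97 and 8.00 in WT. The groups did not overlap, with a difference of 0.32 ± 0.175 (limma adjusted p = 0.0812, 95% interval 0.11 to 0.53). The changes were 0.19 and 0.15 in pairs 1 and 2, against 0.49 and 0.45 in pairs 3 and 4. The latter are the pairs with the acinar difference and with siblings of opposite sex. Proliferation markers, with 19 of 20 measured, had 4 called higher and 0 lower, beside 3.16% and 2.70% of all probe sets. The markers had median changes of 0.37, 0.28, 0.43 and 0.07 in pairs 1 to 4. Their summed level ran from 12.84 to 13.06 in KO and from 12.75 to 12.86 in WT (log2). The part of proliferation in the values of Myc and Sox9 was not tested, nor that of Paneth cells, acinar tissue or sex in those of Sox9.

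The other 7 target genes, among them feedback genes that are widely used as readouts of β-catenin activity, were not called. Axin2, the scaffold that restrains the pathway, had log2 values of 8.97, 8.86, 9.32 and 9.31 in KO, against 9.41, 9.53, 8.93 and 8.95 in WT. The KO was lower in pairs 1 and 2, by 0.44 and 0.67, and higher in pairs 3 and 4, by 0.39 and 0.36. The mean of −0.09 ± 0.545 had a limma adjusted p = 0.797 and a 95% interval from −0.56 to 0.38. For Znrf3, the ligase that removes Frizzled from the surface, the mean was 0.13 (limma adjusted p = 0.472), and it turned negative after centring on housekeeping genes. Nkd1, which binds Dishevelled, differed by −0.31 to 0.10, the transcription factor gene Sp5 by −0.44 to 0.15, and Tnfrsf19, a receptor of crypt base cells, by −0.36 to 0.04. Apcdd1, a membrane-bound Wnt inhibitor, differed by 0.67 and 0.40 in pairs 1 and 2 and by 0.06 and −0.19 in pairs 3 and 4. Ephb3, which positions cells along the crypt, differed by −0.12 to 0.28. All 7 had limma adjusted p of 0.299 or more.

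The stem cell markers did not share 1 direction: Prom1 rose, while Lgr5 and Ascl2 had lower values in the KO of every pair. Lgr5, the R-spondin receptor that marks crypt base stem cells, had log2 values of 7.74, 7.63, 7.79 and 7.56 in KO, against 7.90, 7.98, 7.81 and 7.94 in WT. The groups did not overlap, but pair 3 differed by only −0.02. Its mean difference of −0.23 ± 0.169 did not pass the test (limma adjusted p = 0.155, 95% interval −0.44 to −0.02). Ascl2, the transcription factor that controls stem cell fate, had 4.94, 4.74, 4.89 and 4.87 in KO, against 5.02, 5.25, 5.13 and 5.10 in WT. The mean difference was −0.265 ± 0.179 (limma adjusted p = 0.122), with all 8 values below the background level, where changes may not be measurable. Smoc2, a secreted matrix protein of crypt base cells, differed by −0.20 to 0.12 (mean −0.05, limma adjusted p = 0.738).

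Calls of lower members depended on the scaling and on the block. Centring on 9 housekeeping genes shifted the median change over the array to −0.17, and limma then called 9 members lower: Wnt2b, Wnt3, Wnt5a, Wnt6, Dkk3, Sfrp1, Fzd5, Lgr5 and Ascl2. The called probe sets were then 523 higher and 4915 lower, against 702 and 599 without centring, and 1138 higher and 492 lower after centring on epithelial genes. The same members except Wnt6 were called lower without the sibling block, which treats siblings as independent. As pair means were mostly removed already, that fit counts mirrored sibling values as separate ones, and its p-values are too small. It gave the lowest adjusted p of the ranges over settings printed here for single genes. Fzd7, Cd44 and Prom1 were called higher in each of these fits.

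**Figure D3:**
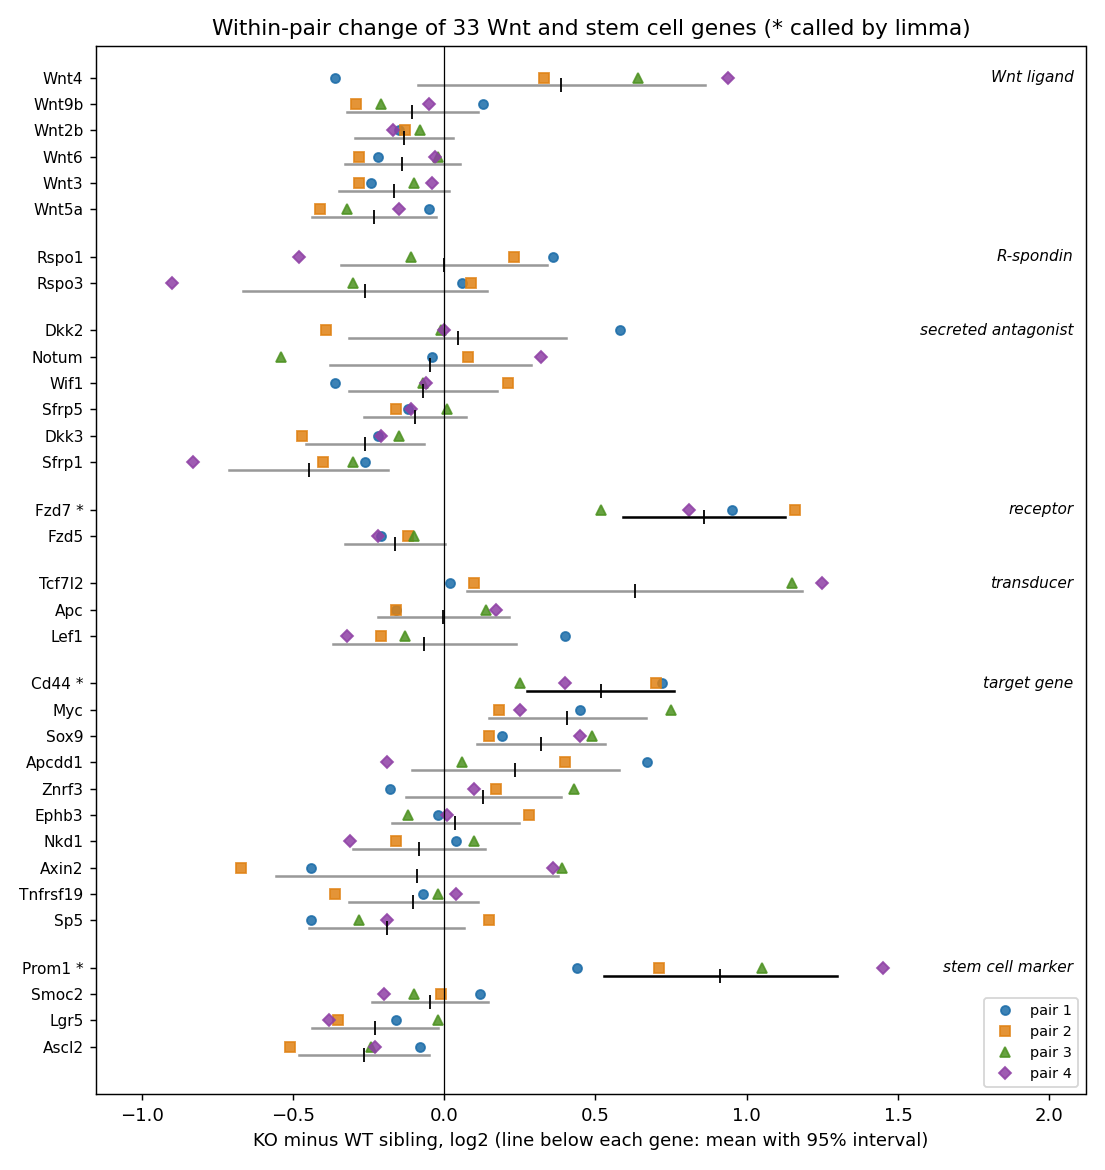
Within-pair change (KO minus WT sibling, log2, horizontal axis) of the 33 genes by role; symbols are the 4 pairs, and the line under each gene gives the mean and its 95% interval from limma (black where called). Only Fzd7, Cd44 and Prom1 are called. Wnt2b, Wnt3, Wnt5a, Wnt6, Dkk3, Sfrp1, Fzd5, Lgr5 and Ascl2 have all 4 pairs below 0, which held for 17.9% of all probe sets. Ascl2 lies below the background level and Wnt3 close to it.

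Beyond these genes, 67 of 68 other Wnt pathway genes were measured, and limma called 3 higher and 1 lower, beside 3.16% and 2.70% of all probe sets. The median change of the list was −0.035. Bcl9 and Bcl9l, paralogous co-activators that link β-catenin to Pygopus, both rose. Bcl9 had log2 values of 8.69, 8.84, 8.95 and 9.34 in KO, against 7.98, 7.88, 7.67 and 7.32 in WT. Its rise of 1.24 ± 0.568 (2.37-fold, limma adjusted p = 0.0261) was the largest on the list. Bcl9l had 7.99, 7.91, 8.18 and 8.23 in KO, against 7.50, 7.65, 7.30 and 7.31 in WT, a rise of 0.64 ± 0.318 (1.56-fold, limma adjusted p = 0.0404). Neither gene's groups overlapped, and in both the change was larger in pairs 3 and 4 (1.28 and 2.02 for Bcl9, 0.88 and 0.92 for Bcl9l) than in pairs 1 and 2 (0.71 and 0.96 for Bcl9, 0.49 and 0.26 for Bcl9l). Pairs 3 and 4 are those with the acinar marker medians of −4.13 and −3.37 and with siblings of opposite sex, and the part of these in both rises was not tested.

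Cdx1, an intestinal homeobox factor and Wnt target, had log2 values of 8.95, 8.85, 8.77 and 8.84 in KO, against 8.37, 8.51, 8.45 and 8.33 in WT, a rise of 0.44 ± 0.128 (1.35-fold, limma adjusted p = 0.0332). Fzd10, a Frizzled receptor, had 5.35, 5.40, 5.35 and 5.43 in KO, against 5.77, 5.75, 5.82 and 5.76 in WT. It fell by 0.39 on the log2 scale (SD 0.0645, limma adjusted p = 0.0321). Its KO values lie below the background level and its WT values only just above it, so the size of the fall is not measured. The filter on dim probe sets left Fzd10 out. Without pair 1, 2 or 3 none of these 4 genes was called by limma, and without pair 4 only Bcl9 was (adjusted p = 0.0405, range over all settings 0.00103 to 0.166). Cdx1 also lost its call with the pair as a random block (limma adjusted p = 0.0802). With sex added to the block only Bcl9 of the 4 was called, and with RNA integrity added none was. The adjusted p over all settings that included the gene ran from 0.00184 to 0.18 for Bcl9l, from 0.000807 to 0.212 for Cdx1 and from 0.000263 to 0.209 for Fzd10.

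**Figure D4:**
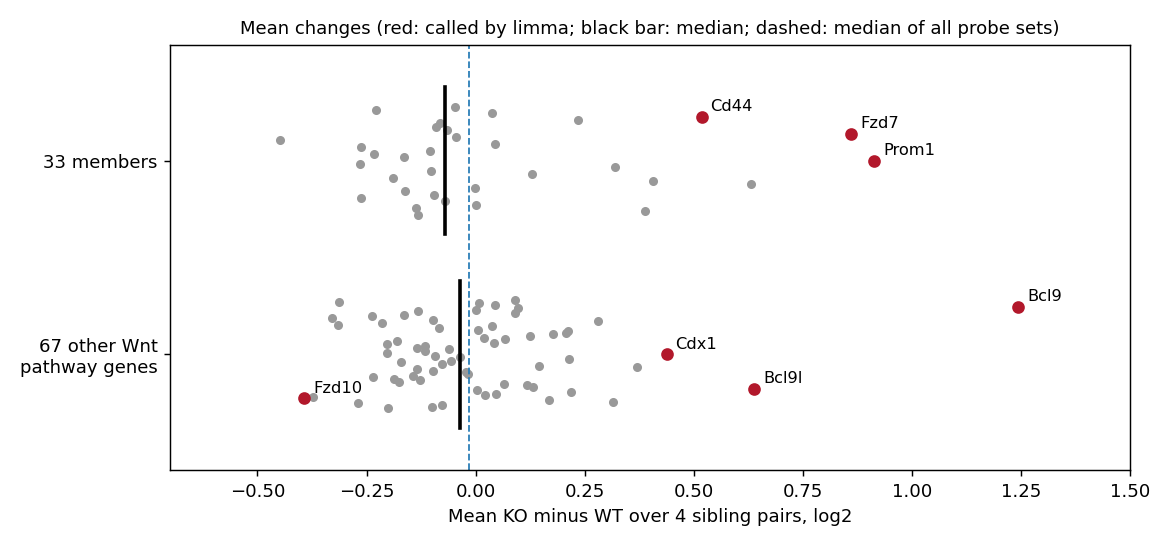
Mean KO minus WT change (log2) of each of the 33 genes and of 67 other Wnt pathway genes; red points are called by limma, black bars are list medians and the dashed line is the median of all probe sets. Medians of −0.07 and −0.035 lie near that of all probe sets, −0.015, and Bcl9 shows the largest rise.

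Of 27 other stem cell and crypt genes, 26 were measured, with 1 called higher and 1 lower by limma, beside 3.16% and 2.70% of all probe sets. Clca3b, of the chloride channel accessory family, had log2 values of 12.53, 12.53, 12.54 and 12.56 in KO, against 11.60, 11.62, 11.48 and 11.49 in WT. Its rise of 0.99 ± 0.0842 (1.99-fold, limma adjusted p = 0.00326) was nearly the same in all 4 pairs, 0.91 to 1.07, and it was called without any 1 pair. Rnf32, a RING finger gene, had 6.49, 6.43, 6.53 and 6.22 in KO, against 7.18, 7.26, 7.03 and 7.35 in WT, and fell by 0.79 on the log2 scale (SD 0.265, limma adjusted p = 0.0199). Rnf32 lost its call without pair 1 (limma adjusted p = 0.0621), pair 2 (0.0838) or pair 4 (0.0538), with a range of 0.000398 to 0.211 across settings. The median change of the list was 0.05.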

How the data were processed

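The data are log2 expression values deposited by the authors, 1 per probe set and array, for 22206 probe sets on 8 arrays. Per the submitters' processing notes, RMA and Transcriptome Analysis Console 4.0 were used, with no further settings stated. Array medians ran from 6.77 to 6.81. The number of arrays limits the precision. Gene symbols came from the platform annotation, which names 1 gene for 19572 probe sets, and all of these gene IDs were found in RefSeq's GRCm38.p6 table. A gene with several probe sets was taken from the one with the highest mean.

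KO and WT were compared with limma 3.58.1 (lmFit and eBayes, two-sided, R 4.3.3), with genotype and sibling pair as terms. This left 3 residual degrees of freedom, and 6.63 after variance moderation. The code of the fit was tested on simulated data with known changes, which does not bear on whether the pairs are independent. Alternatives changed the block, covariates, centring, normalization, variance model, filter on dim probe sets or pairs included. The labels state the sibling pairs. As a check of the pairing, the 2 siblings' deviations from the group mean had correlations of −0.913 to −0.870 over probe sets, which removed pair means would give. The fit takes pairs as independent, yet the correlation of changes over probe sets was 0.682 for pairs 1 and 2, 0.673 for pairs 3 and 4, and 0.346 to 0.420 for other pairs, so p-values may be too small.

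The genes, lists, naming rule and settings were chosen with earlier results of these data known. By the naming rule, values per sample are given for called members, for called genes of the other 2 lists (at most 4 in each direction) and for the largest change in a role with no call. Other members were added after their values were seen. Some were near the threshold or split between pairs, and Fzd5, Wnt3, Wnt5a, Lgr5 and Ascl2 were lower in every pair. The marker lists whose values are not in the results had medians of 0.215 (endothelium, 1 of 10 called higher), −0.035 (enteric neuron and glia, 0 of 8 called by limma, 1 at unadjusted p under 0.05) and −0.22 (enterocyte, 2 of 13 called lower). Epithelial markers had a median of −0.13 with 1 of 10 called higher, and housekeeping genes 0.19 with 1 of 9 called higher. Over all probe sets, 3.16% were called higher and 2.70% lower.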

Additional observations from a re-analysis of the deposited data

Results flagged for a closer look

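Nfkbia fell least in pair 3, by −1.29 on the log2 scale, against −3.26 to −2.93 in the other pairs. The gap to the nearest pair is 0.832 of the whole range, above Dixon's 95% critical value for 4 values. The within-pair changes of 40 genes were examined in this way, and chance gives about 1 such case in 20.

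For 4 genes every change in the pairs of the same sex (1 and 2) had the opposite sign to every change in the pairs of opposite sex (3 and 4), and these differences were not tested. The pattern was found in 12.0% of all probe sets. The mean over pairs 1 and 2 minus that over pairs 3 and 4 was 0.59 for Rspo1, 0.675 for Rspo3, −0.315 for Apc and −0.93 for Axin2.

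For 3 other genes the sign differed between the pairs with a male KO (1 and 3) and those with a female KO (2 and 4), which held for 6.44% of all probe sets and was not tested. The mean over pairs with a male KO minus that over pairs with a female KO was −0.49 for Notum, 0.305 for Nkd1 and −0.215 for Ephb3. The WT siblings of pairs 3 and 4 are of the other sex, and the RNA integrity number of the KO was above that of the WT by 0.9 in both pairs with a male KO and below it in both pairs with a female KO, so these cannot be told apart.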

How the results depend on the processing

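Fzd7, Cd44 and Prom1 kept their direction in all settings tried, and so did Bcl9, Bcl9l, Cdx1, Clca3b and Rnf32. Fzd10 kept its direction in the 17 settings that included it, as the filter on dim probe sets left it out. With the replicate block limma called 1301 probe sets, 3 members higher and 0 lower, 4 other Wnt pathway genes and 2 other crypt genes. Without the block (no replicate block) the counts were 7648, 6, 8, 19 and 8, in that order. Centred on housekeeping genes they were 5438, 3, 9, 17 and 7. A random block gave 2018 probe sets and 1 member lower, and trend and robust variance 1997 and 1. With sex added 464 probe sets, 1 member higher and 1 other Wnt gene were called, and with RNA integrity added 364, 1 and 0. Leaving out 1 pair left 145 to 459 probe sets, 0 to 1 members higher, 0 to 1 other Wnt genes and 1 to 2 crypt genes. With fewer samples, pairs 1 and 2 alone gave 0 calls in each count by limma (5278 probe sets and 10 members at unadjusted p under 0.05), and pairs 3 and 4 alone gave 26 probe sets, 0 members, 0 other Wnt genes and 1 crypt gene. Only members that were not called changed sign, and the cause was not tested. With RNA integrity Apc had 0.0033, Dkk2 −0.01 and Notum 0.02. Centred on housekeeping genes Dkk2 had −0.11, Ephb3 −0.12 and Znrf3 −0.03, and on epithelial genes Apc had 0.04 and Notum 0.001. On pairs 1 and 2 alone Lef1 had 0.09, Notum 0.02, Rspo3 0.08, Smoc2 0.06, Wnt4 −0.01 and Znrf3 −0.01. On pairs 3 and 4 alone Apc had 0.15, Apcdd1 −0.06, Axin2 0.38, Dkk2 −0.01, Ephb3 −0.05 and Tnfrsf19 0.01. On leaving out 1 pair Apc ran from −0.06 to 0.05, Axin2 from −0.25 to 0.10, Dkk2 from −0.13 to 0.19, Ephb3 from −0.04 to 0.09, Lef1 from −0.22 to 0.02, Notum from −0.17 to 0.12, Smoc2 from −0.10 to 0.0033 and Wif1 from −0.16 to 0.03.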

Other observations

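Outside the comparisons above, 2 genes of the crypt list, chosen after their values were seen, differed between pairs far more than Clca3b did. Gkn3, a gastrokine gene of stomach that has also been listed with stem cell genes in the mouse, had log2 values of 5.25, 5.10, 3.79 and 3.73 in KO, against 5.66, 5.64, 7.60 and 7.74 in WT. The differences were −0.41 and −0.54 in pairs 1 and 2, against −3.81 and −4.01 in pairs 3 and 4, where acinar markers were also lower. All 4 KO values and the WT value of pair 2 lie below the background level of 5.65, and the WT value of pair 1 is close to it, so the size of these differences is not measured. The mean of −2.19 was not called (limma adjusted p = 0.0998), though Gkn3 was called lower without the block, after centring on housekeeping genes and on pairs 3 and 4 alone. Slc14a1, a urea transporter gene, had 6.64, 6.18, 6.61 and 6.12 in KO, against 6.70, 7.15, 6.63 and 7.09 in WT. It differed by −0.06 and −0.02 in pairs 1 and 3 and by −0.97 in pairs 2 and 4 (limma adjusted p = 0.154). Pairs 1 and 3 had a male KO and a KO minus WT difference in RNA integrity number of 0.9, while pairs 2 and 4 had a female KO and differences of −0.4 and −0.7. Slc14a1 was called lower by limma with RNA integrity added to the block, without the block and after centring on housekeeping genes.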
